A study of Mus musculus with 4 samples.

Results

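Signals of 8 genes of glucose use were described in immortalized brown adipocytes that expressed NT-PGC-1α. They were Slc2a12, Pfkm, Pfkp, Aldoa, Eno3, Gpd2, Idh3b and Ogdh. A probe of the ABI Mouse Genome Survey array counted as theirs when a list of regulated probes published with the study gives it one of these symbols, and that list was used for names alone. A probe that shared a gene identifier with one of these was added. This gave 9 of the 33012 probes on the array, 8 from the published list and 1 more for Aldoa. The listed probes were picked for their change on these same arrays, by a limit of 25% for higher and 1.5-fold for lower signals together with a p-value of the study's own test. The differences in their signals between the groups are therefore a description, and no test of them is given.

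The cells were an immortalized line of brown preadipocytes, with FVB given as the strain. They carried a lentivirus with HA-tagged NT-PGC-1α in one group and the empty vector in the other, and both groups were differentiated in the same way. Induction took 2 days with dexamethasone (2 µg/ml), indomethacin (250 µM), isobutylmethylxanthine (0.5 mM), triiodothyronine (1 nM) and insulin (20 nM), and 5 days with the last 2 agents followed. Each group was represented by 1 RNA pool, made of 3 RNA samples according to the methods and of 2 according to the deposited description. Each pool was hybridized to 2 arrays named A and B. The comparison was thus between 2 pools, 1 per group, with the difference between arrays as the error, and it has no replicate check across cultures. The empty vector pool is called the control pool below. Where signals are set against each other, those of control arrays A and B come first and those of NT-PGC-1α arrays A and B second, in arbitrary units.

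NT-PGC-1α is a short splice form of the coactivator PGC-1α. It holds the N-terminal part that activates transcription and binds nuclear receptors, among them the PPAR and ERR families. Brown adipocytes take up glucose through transporters of the Slc2a family and split it in glycolysis, in which phosphofructokinase is the main control step. They also use a glycerol phosphate shuttle to carry electrons from the cytosol to the respiratory chain. The TCA cycle then oxidizes acetyl-CoA from sugar and fat in the mitochondrion.

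The sequences before the start sites of 4 of the genes are shown because these genes include the one whose signal was lower with NT-PGC-1α (Slc2a12), the member with the largest increase (Idh3b) and the muscle-type enzymes of glycolysis (Pfkm, Eno3). Each is the 250 bases before a RefSeq start site, read 5′ to 3′ on the gene's strand in GRCm38.p6, with motif matches in capitals. The Slc2a12 window is chr10:22644761-22645010 on the plus strand, and its end overlaps the first bases of the annotated gene, which starts at 22644990. The Pfkm window shown is chr15:98092339-98092588 on the plus strand, just before the annotated gene. It is the first of several for Pfkm. Others include chr15:98108221-98108470, which held no match, and chr15:98111810-98112059, which held a half-site. The Eno3 window is chr11:70656926-70657175 on the plus strand, within the annotated gene span, where exon and intron were not told apart here. The Idh3b window is chr2:130284452-130284701 on the minus strand, just before the annotated gene.
Slc2a12: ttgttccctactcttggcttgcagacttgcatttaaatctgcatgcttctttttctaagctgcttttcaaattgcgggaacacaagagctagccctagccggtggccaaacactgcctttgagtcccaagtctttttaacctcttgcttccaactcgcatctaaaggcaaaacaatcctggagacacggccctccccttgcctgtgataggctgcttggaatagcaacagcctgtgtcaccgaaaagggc
Pfkm: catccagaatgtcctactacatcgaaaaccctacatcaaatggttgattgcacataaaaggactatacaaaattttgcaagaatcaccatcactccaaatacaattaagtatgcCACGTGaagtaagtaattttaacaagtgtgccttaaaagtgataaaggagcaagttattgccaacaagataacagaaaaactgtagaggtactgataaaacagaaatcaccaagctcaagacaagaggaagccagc
Eno3: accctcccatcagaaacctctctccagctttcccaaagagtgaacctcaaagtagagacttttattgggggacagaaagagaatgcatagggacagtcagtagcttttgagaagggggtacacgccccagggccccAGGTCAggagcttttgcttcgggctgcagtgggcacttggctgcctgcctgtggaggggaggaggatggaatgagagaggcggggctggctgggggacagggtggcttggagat
Idh3b: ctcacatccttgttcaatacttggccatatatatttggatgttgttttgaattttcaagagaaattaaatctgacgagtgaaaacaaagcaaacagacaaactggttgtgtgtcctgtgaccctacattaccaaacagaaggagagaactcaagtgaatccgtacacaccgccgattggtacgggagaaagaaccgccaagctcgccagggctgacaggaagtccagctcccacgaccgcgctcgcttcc
The motifs searched on both strands were TNAAGGTCA (an ERR element), AGGTCA (a nuclear receptor half-site, which lies within the ERR element), CACGTG (an E-box) and the palindromic NRF1 consensus. The capitals in Pfkm mark an E-box and those in Eno3 a half-site. The 8 genes have 19 such windows in RefSeq, some of which overlap. A half-site was found in 4 of the 19 windows, of Pfkm, Aldoa and Eno3, and in 14% of all 32851 windows. The Aldoa matches are the same site, seen in overlapping windows. An E-box was found in 4 of the 19, of Pfkm and Ogdh, and in 6.02% of all windows. The Ogdh windows before 6292558 and 6292579 overlap and hold the same E-box. For both motifs, the windows with a match thus outnumber the distinct sites. No window of the 8 genes held the ERR element or the NRF1 site, which 1.14% and 0.782% of all windows held. No match of any of these motifs was found in windows of Slc2a12, Pfkp, Gpd2 or Idh3b.

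Facts of the arrays as a whole bear on every fold below. Signals were log2 transformed and normalized by quantiles. The deposited 75th percentile was 3780 and 3335 on the control arrays against 3147 and 2779, so the scaling of the arrays matters for probes of middle and high signal. The overexpressed gene Ppargc1a gave 113.9 and 135.7 against 1078 and 713.9 at its listed probe (847307), a 7.06-fold increase (5.26 to 9.46 across the 4 pairings of arrays), and 1.63-fold (1.14 to 2.32) at a second probe. Of 12 markers of brown adipocytes, 3 had a named probe (Ppargc1a, Ppara, Ebf2), and all 3 had higher signals with NT-PGC-1α. Of 9 preadipocyte or fibroblast markers, 3 were named (Col1a1, Col3a1, Thy1), and all 3 were lower. Every marker named here came from the published list of changed probes, and Ppargc1a is the gene that was overexpressed, so that they differed was fixed by the choice and is no check of the cells. Of 7 macrophage markers 2 were named, with Cd14 1.37-fold higher and Cd68 2.43-fold lower, and of 4 endothelial markers 1 was, with Cdh5 higher. Ucp1, Fabp4 and Adipoq had no named probe, so the label of the cells could not be checked from these markers.

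For each of the 8 listed probes the signals of the pools were apart, 7 being higher with NT-PGC-1α (36.3% of all probes were) and 1 lower (35.4%). All 7 were at least 25% higher (26.2% of all probes), and 4 of them reached 1.5-fold (16.9%). The remaining probe, that of Slc2a12, was more than 1.5-fold lower (17.6%). The median log2 fold was 0.62 over the 8 probes and 0.01 over all 33012. Taking single arrays instead of means, the median of the 8 ranged from 0.59 to 0.73 over the 4 pairings. These values describe how the list was chosen. The smallest change among the 8 probes was that of Aldoa (1.27-fold), just inside the limit of 25%, and the second Aldoa probe (1.05-fold) lies outside that limit.

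**Figure D1:**
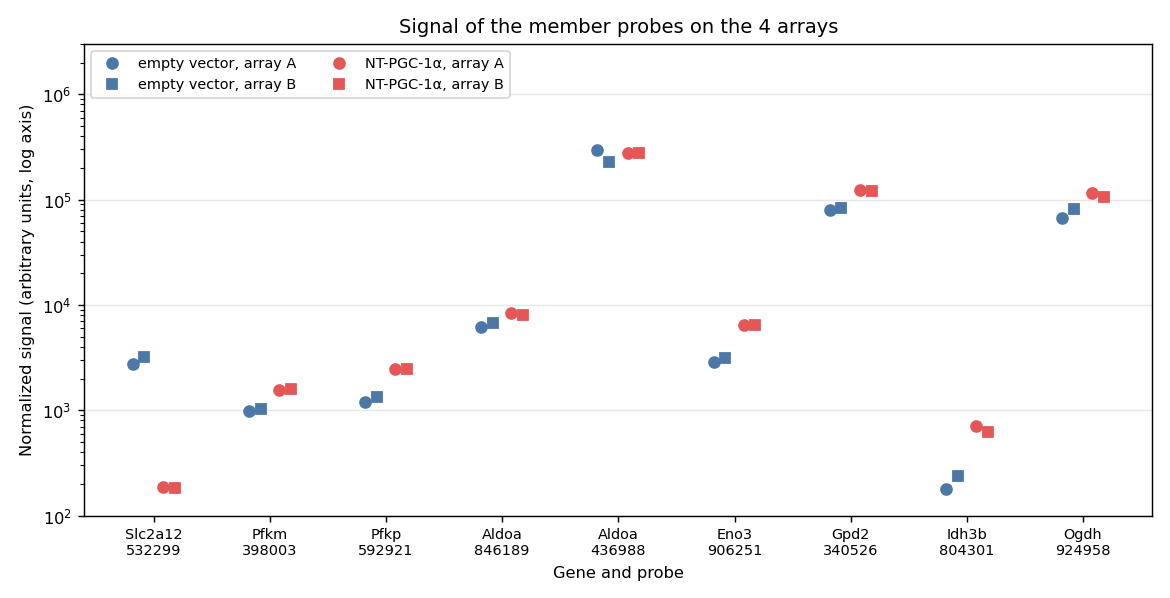
Normalized signal (log axis, arbitrary units) of the 9 probes on each of the 4 arrays, blue for empty vector and red for NT-PGC-1α, circles for array A and squares for array B. Both red points lie below both blue points for Slc2a12 (187.6 and 184.8 against 2775 and 3235), above them for the other listed probes, and between them for Aldoa 436988.

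Slc2a12 encodes GLUT12, a facilitative glucose transporter of the plasma membrane. Its probe (532299, identifier mCG2054.3) had normalized signals of 2775 and 3235 on the control arrays against 187.6 and 184.8 with NT-PGC-1α. Both NT-PGC-1α arrays were far below both empty vector arrays, and the deposited signals (3227 and 3329 against 203.2 and 192.2) showed the same. It was 16.1-fold lower with NT-PGC-1α (14.8 to 17.5 across the pairings). The arrays of a pool differed much less, by 1.17-fold with empty vector and 1.02-fold with NT-PGC-1α. Among the 33012 probes ordered from the largest decrease, it stood at rank 17. The NT-PGC-1α signals were low and no background value was at hand, so the size of the fold is less certain than its direction. With an offset of 112, the 5th percentile of the signals, added to every signal the probe was 10.4-fold lower. Thy1, a surface protein of fibroblasts and preadipocytes, was 8.59-fold lower in the same pool, Col1a1 1.59-fold lower and Col3a1 lower by a log2 fold of -0.59. The summed signal of these 3 markers was 406020 and 447692 against 268619 and 287213. Their part in the Slc2a12 result was not tested, and fewer cells of a type cannot be told apart from less RNA per cell in such pools. The other named transporter, Slc2a4, encodes GLUT4, the insulin-responsive carrier of fat and muscle. It went the other way, with 45945 and 46034 against 57323 and 59870, a 1.27-fold increase that was at most 1.30-fold in any pairing.

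Pfkm and Pfkp encode the muscle and platelet forms of phosphofructokinase, which phosphorylates fructose 6-phosphate. The Pfkm probe (398003, mCG8414.2) gave 983.3 and 1020 against 1572 and 1588. The arrays of each pool lay close together, within 1.04-fold and 1.01-fold, and the groups did not overlap. The increase was 1.58-fold, with 1.54 and 1.61 as the lowest and highest pairing. The Pfkp probe (592921, mCG1724.1) gave 1209 and 1333 against 2478 and 2466. Every NT-PGC-1α array was thus above every empty vector array, by 1.85-fold at the least and 2.05-fold at the most, and the fold of the means was 1.95. In the decile of probes by mean signal that holds Pfkm and Pfkp, 21.1% of probes were at least 1.5-fold higher without overlap. The pairing ranges of Pfkm and Pfkp did not meet, so the larger fold of Pfkp exceeded the difference between arrays. Without normalization the folds were 1.33 and 1.63, in the same order, and Pfkm was then below 1.5-fold. The third form, Pfkl, had no named probe.

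Aldoa encodes aldolase A, which cleaves fructose 1,6-bisphosphate, and it is the member with 2 probes. The listed probe (846189, mCG22383.2) gave 6234 and 6691 against 8411 and 8010. The groups did not overlap after normalization, and the increase was 1.27-fold (1.20 to 1.35). In the deposited signals they did overlap, with 7093 and 6732 against 8383 and 7079, and the fold was 1.11. Leaving out array A of empty vector gave 1.23-fold and leaving out array A of NT-PGC-1α gave 1.24-fold, both under the limit of 25%. The second probe (436988) carries the same single identifier and was not in the published list, so it had not passed that list's limits. Its signals were 298401 and 228842 against 274869 and 274282. The NT-PGC-1α arrays lay between the empty vector arrays, which were 1.30-fold apart, and the fold was 1.05 (0.919 to 1.20). The 2 probes of this gene therefore did not give the same call, and the part of the transcript that each one targets was not known here. Such a gap was not peculiar to Aldoa. Across the array, 75 unlisted probes carried exactly the identifiers of a listed probe at least 25% higher. Their median fold was 1.03, against 1.57 for the 72 listed probes concerned. Of the 75, 17 were at least 25% higher (22.7%, against 26.2% of all probes), 9 were called lower and 26 had overlapping groups.

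Eno3 encodes β-enolase, the enolase of muscle, which makes phosphoenolpyruvate. Its probe (906251, mCG21166.2) had signals of 2865 and 3157 against 6384 and 6426. Both NT-PGC-1α arrays were clearly above, and within 1.01-fold of each other. The increase was 2.13-fold (2.02 to 2.24), or 1.82-fold without normalization. In the decile of probes by mean signal that holds Eno3, 8.03% of probes were at least 1.5-fold higher without overlap. Of 9 skeletal muscle markers, 4 had a named probe. Mb, the oxygen carrier myoglobin, was 3.73-fold higher and Tnnt3, a fast-muscle troponin, 6.85-fold higher, the latter from low signals of 146.4 and 173.6. Myog, a factor of muscle differentiation, was 2.78-fold lower and Myh4, a fast myosin, 1.53-fold lower. The summed signal of the 4 was 29128 and 28917 against 108288 and 103739, nearly all of it from Mb. Their part in the Eno3 and Pfkm results was not tested.

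Gpd2 encodes the mitochondrial glycerol 3-phosphate dehydrogenase, the inner-membrane enzyme of the glycerol phosphate shuttle. Its probe (340526, mCG141926) gave 80351 and 82834 against 123399 and 120987. The groups were apart and the arrays of a pool lay within 1.03-fold and 1.02-fold. The fold was 1.498, just below 1.5, with a range of 1.46 to 1.54. This is a bright probe, in the top decile by mean signal, where 4.03% of probes were at least 1.5-fold and 14.8% at least 25% higher without overlap.

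Idh3b encodes the β subunit of the NAD-dependent isocitrate dehydrogenase of the TCA cycle. Its probe (804301, mCG9915.2) gave 180.1 and 236.1 against 712.9 and 625.8. Both NT-PGC-1α arrays were above both empty vector arrays, but arrays of one pool also differed, by 1.31-fold and 1.14-fold. The 3.24-fold increase was the largest of the 8 genes and had the widest range, from 2.65 to 3.96. In its signal decile, the median difference between arrays was 1.20-fold in the control pool and 1.24-fold in the other, and 28.1% of probes were at least 1.5-fold higher without overlap. With the offset of 112 the fold was 2.45. No other subunit of this enzyme had a named probe.

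Ogdh encodes the E1 subunit of the oxoglutarate dehydrogenase complex, which follows isocitrate dehydrogenase in the cycle. Its probe (924958, mCG21383.3) gave 67579 and 81890 against 115511 and 106256. The groups did not overlap, although the empty vector arrays were 1.21-fold apart, where the median for probes of its decile was 1.05-fold. The increase was 1.49-fold (1.30 to 1.71). It was 1.35-fold without array A of empty vector and 1.65-fold without array B, and 1.42-fold and 1.55-fold without the NT-PGC-1α arrays in turn, so its side of 1.5-fold depended on which arrays were used.

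**Figure D2:**
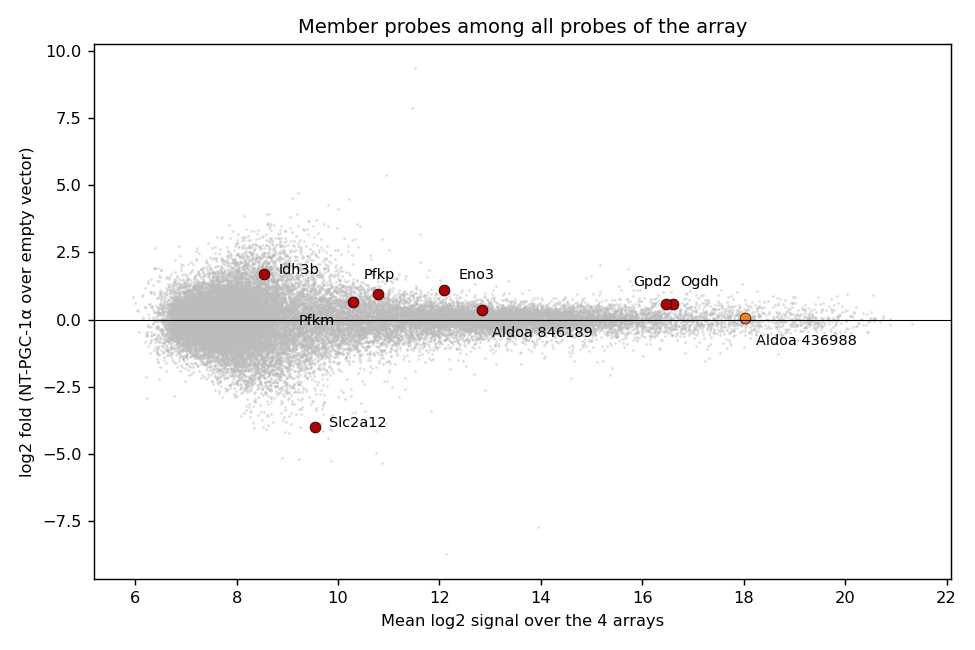
Log2 fold of NT-PGC-1α over empty vector against the mean log2 signal of the 4 arrays for all 33012 probes (grey), with the 8 listed probes in red and the second Aldoa probe in orange. The spread of folds is wide at low to middle signal, where Idh3b lies, and narrow at high signal, where Gpd2 (1.498-fold) and Ogdh (1.49-fold) stand in the upper part of the cloud and Aldoa 436988 near its middle.

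By size, the order of the increases with quantiles was Idh3b, Eno3, Pfkp, Pfkm, Gpd2, Ogdh and Aldoa. Without normalization, Pfkm (1.33-fold) fell below Gpd2 (1.42-fold) and Ogdh (1.40-fold). Median and 75th percentile centring differ from this only by a constant per array, so they keep the same order of folds. With quantiles, the pairing ranges of Idh3b (2.65 to 3.96) and Eno3 (2.02 to 2.24) did not meet, and nor did those of Pfkp and Pfkm. Eno3 and Pfkp overlapped between 2.02 and 2.05. The ranges of Pfkm and Gpd2 lay side by side without overlap, their facing ends both rounding to 1.54. Ogdh overlapped with Pfkm, Gpd2 and Aldoa, so the place of Ogdh among these was not settled beyond the difference between arrays. The ranges of Pfkm and Gpd2 lay above that of Aldoa (1.20 to 1.35). Not all of these separations held under other processing. With the offset of 112 added to every signal, the range of Idh3b (2.12 to 2.82) met that of Eno3. Without normalization, the range of Pfkm (1.19 to 1.49) overlapped with that of Aldoa, whereas that of Gpd2 stayed above it. For all 8 listed probes the empty vector signal was higher on array B than on array A after normalization, as for 51.7% of all probes. As a result, every fold of the 7 higher probes was larger with array A of empty vector than with array B.

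The folds depended on how the arrays were scaled. All 8 listed probes kept their direction under no normalization, median centring, 75th percentile centring and cyclic loess. The number at least 25% higher and apart was 6 with no normalization and with median centring, because Aldoa left the count (1.11-fold and 1.13-fold), and 7 with the other 2. At 1.5-fold the number was 3, 3, 6 and 5 in that order, against 4 with quantiles. Centring on the 75th percentile moved the median log2 fold of all probes to 0.22 and the share of higher among probes past 1.5-fold from 49.0% to 71.1%. Relative to all probes, the median log2 fold of the 8 was 0.54 under that scaling, and 0.54 with no normalization and with median centring, against 0.61 with quantiles. The value of 0.54 is shared by construction, because those settings differ only by a constant per array.

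**Figure D3:**
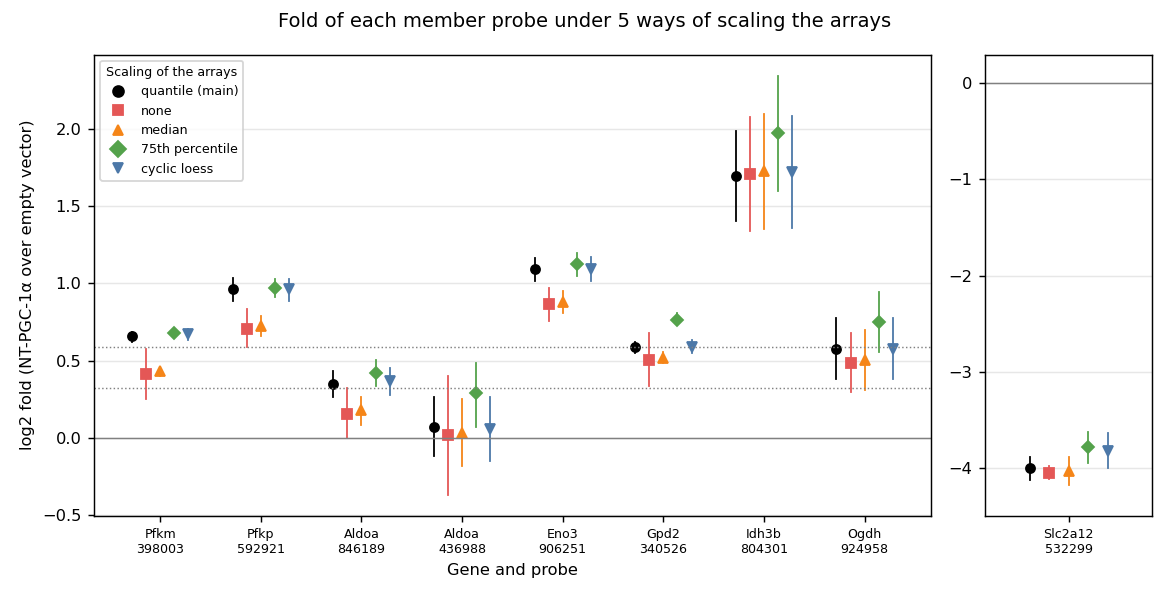
Log2 fold of each of the 9 probes under 5 ways of scaling the arrays, with lines for the range over the 4 pairings of arrays and dotted lines at 25% higher and at 1.5-fold. Slc2a12 has its own axis. Slc2a12 stays near -4 (-4.01 with quantiles) and Idh3b stays above 1.5-fold throughout, whereas Aldoa 846189 drops to 1.11-fold without normalization.

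Other genes of glucose and TCA metabolism were taken from lists set by function. A symbol was at hand for 24 of the 130 genes in the lists, the 8 genes above among them, and all but 1 of the other 16 named probes came from the published list, which holds probes that changed. Second probes outside that list had not passed its limits. Genes without a named probe were not analysed here, so the counts below say nothing of how many genes of a pathway stayed level. Of the 16 probes, 10 were at least 25% higher, 5 at least 20% lower (26.2% and 26.0% of all probes) and 1, that of G6pc, had overlapping groups. Their median log2 fold was 0.40, against 0.01 over all probes. The published list took higher probes from a limit of 25% but lower ones only from 1.5-fold. Neither the split nor the median therefore measures a shift of these pathways.

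In glycolysis, Hk2, the insulin-regulated hexokinase, gave 84972 and 85898 against 116734 and 113241, a 1.35-fold increase (1.32 to 1.37). Tpi1 and Pklr were lower instead. Tpi1, the triose phosphate isomerase that follows aldolase, gave 2857 and 3055 against 1874 and 1751, 1.63-fold lower (1.52 to 1.74). A second Tpi1 probe outside the published list was 1.27-fold lower, with 2199 and 2106 against 1801 and 1584, so both probes of this gene moved the same way. Pklr, the liver and red cell pyruvate kinase, was 1.56-fold lower (1.54 to 1.58). The named glycolytic genes thus went both ways, with Hk2, Pfkm, Pfkp, Eno3 and the listed Aldoa probe higher and Tpi1 and Pklr lower.

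At the step from pyruvate to acetyl-CoA, the pyruvate dehydrogenase genes Pdhx and Pdhb were 1.43-fold (1.37 to 1.49) and 1.32-fold (1.27 to 1.38) higher at their listed probes. A second Pdhb probe gave 333782 and 341809 against 321658 and 276770, 1.13-fold lower. The 2 probes of Pdhb therefore moved apart, and the groups of the second one overlapped in the deposited signals. The 2 named genes of lactate handling, both from the published list of changed probes, were lower. Slc16a1, the monocarboxylate carrier MCT1, was 1.90-fold lower (1.83 to 1.98), and Ldhd, the mitochondrial D-lactate dehydrogenase, 1.94-fold lower (1.76 to 2.15).

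Of 23 TCA cycle genes in the list, 3 had a named probe reported here, and all 3 were higher. Beside Idh3b and Ogdh this was Sucla2. All 3 probes came from the published list of changed probes, so that they differed was fixed by that choice. Over all probes, 36.3% were higher with the groups apart. The count is therefore no measure of a rise of the cycle. Sucla2, a subunit of succinyl-CoA synthetase, gave 95476 and 96586 against 136345 and 142504, 1.45-fold higher (1.41 to 1.49). Ogdh and Sucla2 had increases under 1.5-fold, and among these 3 genes only Idh3b was above it.

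Beside Gpd2, the shuttle list named 4 genes of the malate-aspartate shuttle. Got1, the cytosolic aspartate aminotransferase, was 1.46-fold higher (1.41 to 1.52), and the mitochondrial carriers Slc25a11 and Slc25a12 were 1.34-fold and 1.31-fold higher. Got2, the mitochondrial aminotransferase, gave 1833 and 1747 against 797.4 and 831.8, a log2 fold of -1.14 (2.10-fold to 2.30-fold lower). In glycogen metabolism, the branching enzyme Gbe1 was 1.64-fold higher (1.59 to 1.69). G6pd2, a copy of the gene for glucose 6-phosphate dehydrogenase, was 1.59-fold higher at its listed probe, and another probe of the same identifier had overlapping groups (1.03-fold). Because the copies are alike in sequence, the source of these signals is uncertain. G6pc, the glucose 6-phosphatase of liver, had low signals of 130.4 and 214.9 against 230.4 and 186.5. Without normalization 5 of the 10 higher probes stayed past the limit of 25%, and Slc2a4 (1.16), Pdhb (1.14), Pdhx (1.22), Slc25a11 (1.12) and Slc25a12 (1.15) did not.

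**Figure D4:**
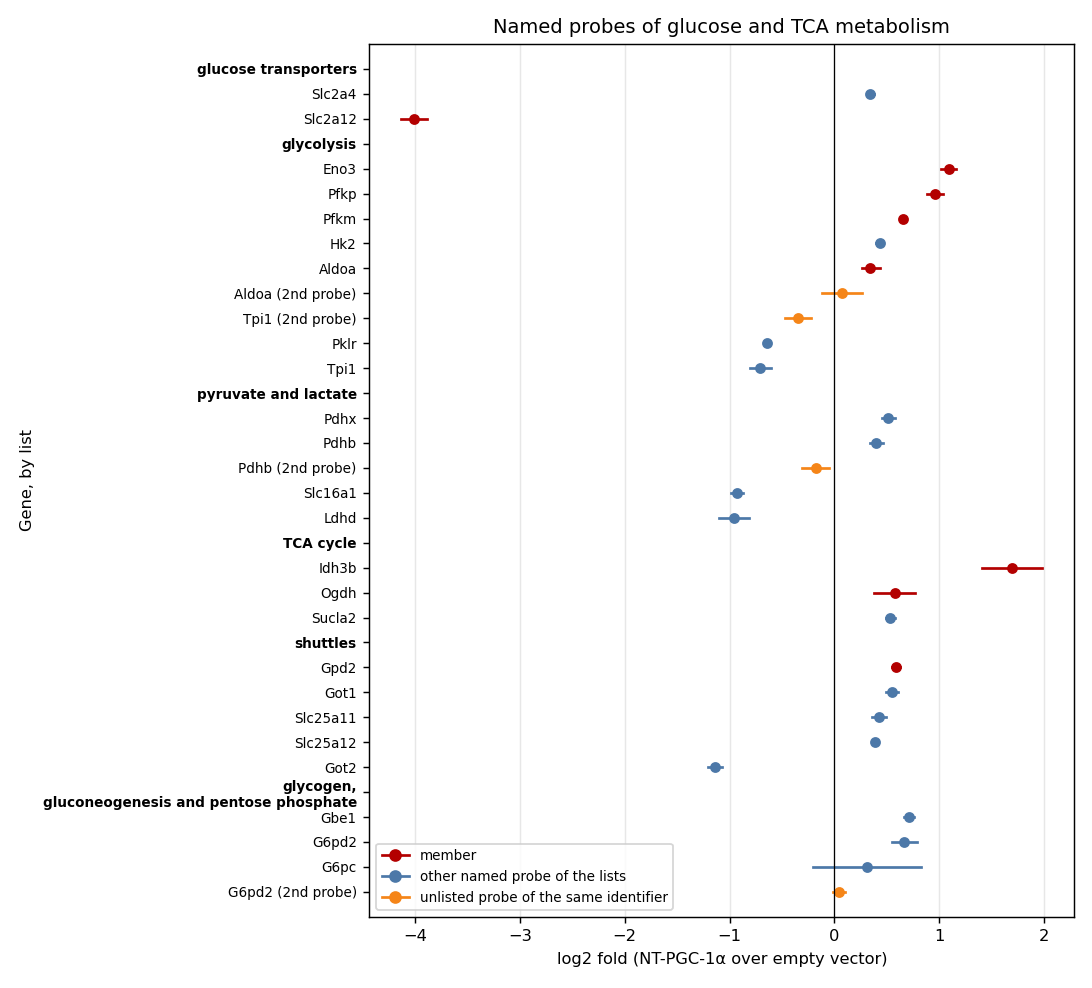
Log2 fold of NT-PGC-1α over empty vector for the named probes of the lists, with lines for the range over the 4 pairings of arrays. Red marks the 8 genes of glucose use, blue the other named probes and orange unlisted probes with the identifier of a listed one. Most points lie between 0 and 1, and Slc2a12 stands alone near -4. The orange points of Aldoa, G6pd2, Pdhb and Tpi1 lie nearer to 0 than, or across 0 from, the listed probe.

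Among 1627 other named probes, those nearest in pattern to Slc2a12 were Camk4, Thoc4 and Slco1a4. Likeness was the Euclidean distance over the 4 arrays between log2 signals centred on the empty vector mean, so it weighs size of change above all. Camk4, a calcium and calmodulin dependent kinase, was 14.6-fold lower, Thoc4, an mRNA export factor, 18.8-fold lower and Slco1a4, an organic anion transporter, 13.4-fold lower. Nearest to Eno3 were Acbd6 (2.11-fold higher), Fndc5 (2.13-fold) and Ppp1r1b (2.14-fold). With 2 pools, likeness of pattern holds little beyond a similar fold.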

How the data were processed

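Labelled RNA of 2 pools, with 2 arrays each, was read on the Mouse Genome Survey platform of ABI. The authors deposited a linear signal intensity for 33012 probes per array without normalization across arrays. Per the methods, slides were read on an Applied Biosystems chemiluminescent analyzer. R 2.2.1 is named in the submitters' processing notes. Whether background had been subtracted is not given in the sources used here, and the number of arrays limits the precision.

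Intensities were log2 transformed and normalized by quantiles, as the methods state (R 4.3.3, limma 3.58.1; Python 3.11.15, pandas 2.3.3), with no filter. A fold compares mean log2 signals, and its range covers the 4 pairings of arrays. Arrays of 1 pool are 1 replicate, so no p-value was computed. Called means at least 25% higher or 20% lower, or past 1.5-fold, with both arrays of a group beyond both of the other.

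A symbol was given to 1342 probes by the published list and to 293 by a RefSeq accession (GRCm38.p6). Versions of mCG identifiers were ignored. The signal to noise ratios and flags of the methods were not used here. Some genes of the pathway lists are not reported here and entered no count over them. Promoter sequences are those of RefSeq. The genes, lists and motifs were chosen with earlier results of these data known. Named are the 8 genes, Ppargc1a, named probes of the pathway lists and markers, and for Slc2a12 and Eno3 the 3 nearest probes in pattern. The steps were also run on simulated data. Its noise came from the difference between arrays of a pool alone, so it cannot speak to variation between pools or cultures. Alternatives were other scalings (none, median, 75th percentile, cyclic loess), normexp (offset 50), the 5th percentile added to all signals, a filter at the array median, each array left out, separate normalization of A and B arrays, identifiers with versions and the mean over a gene's probes.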

Additional observations from a re-analysis of the deposited data

How the results depend on the processing

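Of 299 values of 25 single probes under alternatives, 219 moved by less than the spread between arrays, and none of a probe with groups apart changed direction. The 219 include the values under the filter at the array median, which could not move because the filter only removes probes. The median log2 fold of the 8 listed probes, 0.62, was 0.50 with no normalization, 0.51 with median centring and 0.76 with 75th percentile centring, and 0.59 to 0.70 with 1 array left out. The number of them at least 25% higher stayed at 6 or 7. The number at least 1.5-fold higher was 4 to 6 with 1 array left out and was 6 without array B of either pool, through Gpd2 and Ogdh. The groups of the second Aldoa probe no longer overlapped under 75th percentile centring (1 of 1 probes) and in 0 to 1 probe with 1 array left out. This probe was 1.20-fold higher without array A of empty vector and 0.918-fold without array B, so its direction changed. Of the other named pathway probes, 5 were at least 25% higher with no normalization and 5 with median centring, against 10. The array letters were not stated to mark a shared batch, and differences between A and B did not go together across the pools (r = -0.018 over probes). With the letter as a replicate block the median log2 fold was 0.62 and the counts at both limits were unchanged at 7 and 4. The mean over both Aldoa probes gave a log2 fold of 0.21. Over all probes, 9227 were at least 1.5-fold higher and 3759 lower under 75th percentile centring and 2847 and 3109 among the fewer probes left by the filter at the array median, against 5565 and 5802. Low signals limit Slc2a12 and Idh3b most.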
